A study of Mus musculus with 5 samples.

Results

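NRF2, encoded by Nfe2l2, is the transcription factor that switches on the main antioxidant and detoxification genes of the cell. KEAP1 holds NRF2 in the cytoplasm and hands it to a CUL3 ubiquitin ligase for destruction. Oxidants and electrophiles modify KEAP1, and NRF2 then enters the nucleus, pairs with a small MAF protein and binds antioxidant response elements near its targets. The 10 genes described here are these 2 regulators and 8 classical targets: Nqo1 (quinone reduction), Hmox1 (heme breakdown), Slc7a11 (cystine uptake), Gclc and Gclm (glutathione synthesis), Gsr (glutathione recycling), Txnrd1 (thioredoxin reduction) and Srxn1 (repair of overoxidised peroxiredoxins). They were chosen by name, as members of the pathway. All 10 were found among the 78334 gene identifiers of the deposited table, and all 10 were among the 24779 genes with enough counts to be tested.

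The samples were 5 messenger RNA libraries of visceral adipose tissue. They came from male mice of the inbred strain C57BL/6, which entered the study at 8 weeks of age. The control group (1 library) came from mice on standard chow given vehicle. The obesity group (2 libraries) was fed for 8 weeks on food in which fat gave 60% of the energy, and then received vehicle. The resveratrol group (2 libraries) had the same diet and then resveratrol, a polyphenol of plants. The dose was 2.25 mg/kg, given daily by gastric tube for 28 days from 16 weeks of age. Tissue was collected after 12 weeks in all. The labels do not say which visceral depot was taken, nor whether libraries of 1 group stem from different mice. The p-values therefore cover only how far these libraries spread. Levels are CPM, a gene's count scaled to a common library total, after TMM scaling, a correction for library composition. The ± sign gives an SD over 2 libraries, and the control group has no replicate.

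Total counts ranged from 19540961 to 27026597, and the libraries differed in tissue content. The 10 adipocyte markers summed to 20615 and 22070 CPM in obesity libraries 1 and 2, to 22188 CPM in resveratrol library 2, to 5444 CPM in resveratrol library 1 and to 352 CPM in the control library, with none at a count of 0 in any library. The 9 macrophage markers summed to between 1928 and 2298 CPM in the obesity libraries and resveratrol library 2, to 319 CPM in resveratrol library 1 and to 95.1 CPM in control. The 10 markers of the epididymis, the duct that stores sperm, summed to 63301 CPM in control and 3399 CPM in resveratrol library 1, where Crisp1 alone gave 3397 CPM and the other 9 were at 0.727 CPM or less, 3 of them at 0. In the other libraries they summed to between 0.238 and 18.1 CPM, with 1 marker at 0 in obesity library 1 and 8 in each of obesity library 2 and resveratrol library 2. The 8 smooth muscle markers summed to 46104 CPM in resveratrol library 1 and to between 1031 and 2320 CPM elsewhere. Synpo2 gave 725 and 710 CPM in obesity libraries 1 and 2 and 665 CPM in resveratrol library 2, but 17.5 CPM in control. Synpo2 and Tagln were lower in control than in both obesity libraries, and the other markers of this list were higher. Resveratrol library 2 held the highest sums of the 5 mesothelium markers (205 CPM, against 25.7 and 15.9 in obesity) and of the 6 endothelium markers (887 CPM, against 495 and 462). The part of this tissue content in the values below was not tested, and in bulk tissue fewer cells of a type and less RNA per cell cannot be told apart.

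**Figure D1:**
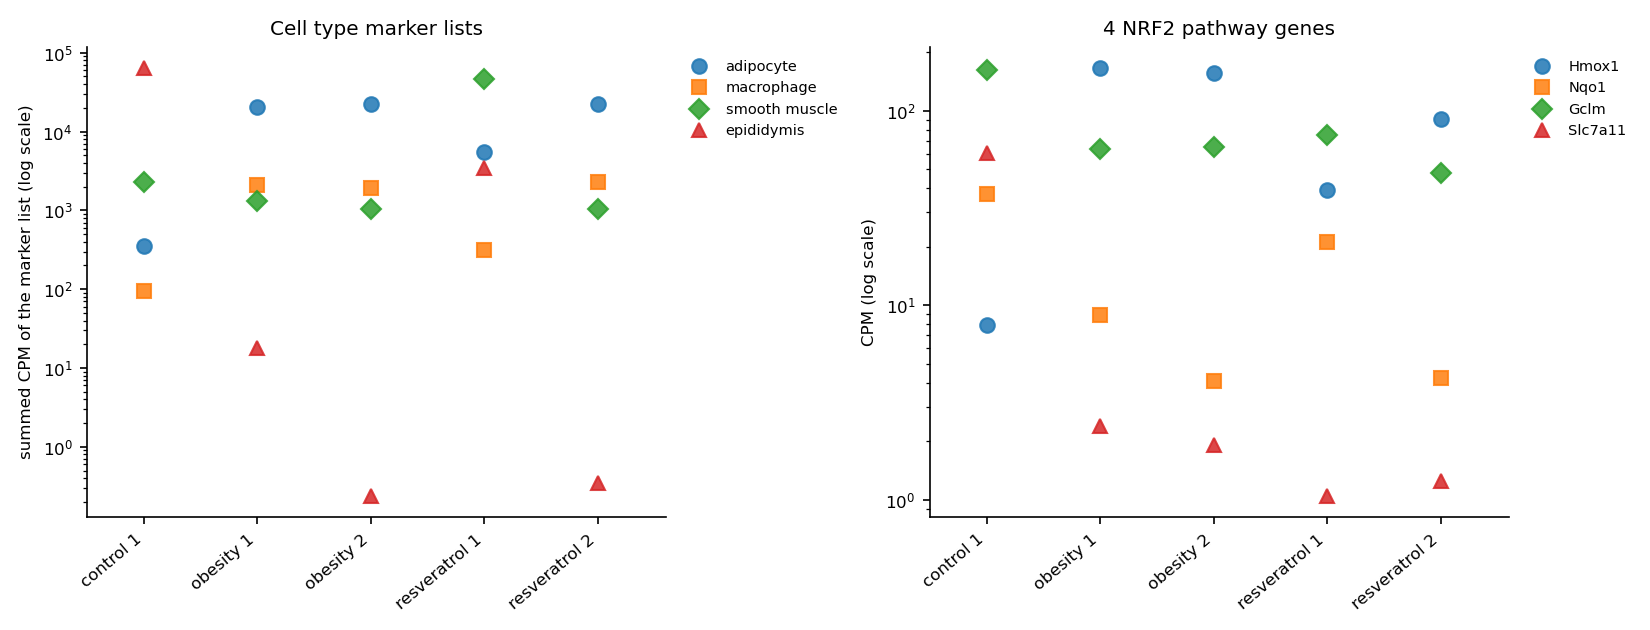
Left, summed CPM of 4 cell type marker lists in each library; right, CPM of 4 NRF2 pathway genes in the same libraries (both vertical axes logarithmic, 1 point per library and list or gene). The control library holds the highest epididymis sum (63301 CPM; that of resveratrol library 1 is nearly all Crisp1) and the highest Slc7a11 (60.9 CPM), and resveratrol library 1 the highest smooth muscle sum (46104 CPM).

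Promoter sequences are shown for the members whose upstream bases hold a match to a motif named below. RefSeq promoters on GRCm38.p6 matched 7 of the 10 members, in 9 windows, since Txnrd1 has several starts. Hmox1, Gclc and Gsr had no entry. Each window covers 240 bases, from 250 to 11 bases before the annotated start, and is printed 5′ to 3′ on the strand of the gene. Capitals mark matches on either strand to 3 motifs. The first is TGACNNNGC, the core of the antioxidant response element. The next is TGAGTCA, the site of AP-1 proteins, printed with GC where it runs on to TGAGTCAGC, a form that MAF proteins also bind. The last is TGATGCAAA, the amino acid response element bound by ATF4, another known activator of Slc7a11. Coordinates are on another build than the GRCm39 of the counts. The windows are Nfe2l2 at chr2:75704674-75704913 (minus strand), Gclm at chr3:122245307-122245546 (plus strand), Srxn1 at chr2:152105274-152105513 (plus strand), Slc7a11 at chr3:50443624-50443863 (minus strand) and Txnrd1 at chr10:82858956-82859195 (plus strand), the start of Txnrd1 that holds a match.
Nfe2l2: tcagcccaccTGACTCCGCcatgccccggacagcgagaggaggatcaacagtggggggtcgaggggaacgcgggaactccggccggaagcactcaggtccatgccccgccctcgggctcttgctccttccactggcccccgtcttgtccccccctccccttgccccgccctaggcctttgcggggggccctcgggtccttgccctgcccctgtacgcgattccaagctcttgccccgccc
Gclm: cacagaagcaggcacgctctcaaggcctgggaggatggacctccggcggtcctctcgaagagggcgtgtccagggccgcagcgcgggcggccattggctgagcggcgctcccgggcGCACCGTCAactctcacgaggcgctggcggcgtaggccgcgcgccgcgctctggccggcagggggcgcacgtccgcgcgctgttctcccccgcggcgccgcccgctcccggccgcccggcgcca
Srxn1: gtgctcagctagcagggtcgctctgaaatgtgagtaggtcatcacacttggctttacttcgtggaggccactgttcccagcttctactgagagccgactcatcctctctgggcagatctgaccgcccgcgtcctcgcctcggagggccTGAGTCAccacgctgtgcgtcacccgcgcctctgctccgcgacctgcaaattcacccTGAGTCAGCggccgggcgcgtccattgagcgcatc
Slc7a11: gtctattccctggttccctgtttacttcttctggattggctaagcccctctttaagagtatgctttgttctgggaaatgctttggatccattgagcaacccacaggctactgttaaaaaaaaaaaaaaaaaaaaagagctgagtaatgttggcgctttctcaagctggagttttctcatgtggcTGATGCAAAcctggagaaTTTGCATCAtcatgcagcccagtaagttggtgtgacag
Txnrd1: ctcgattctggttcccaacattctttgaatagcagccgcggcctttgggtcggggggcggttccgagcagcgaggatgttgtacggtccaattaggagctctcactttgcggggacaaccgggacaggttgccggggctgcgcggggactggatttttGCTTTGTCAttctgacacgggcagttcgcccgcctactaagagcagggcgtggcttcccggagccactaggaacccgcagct

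The core TGACNNNGC stood in 3 of the 9 member windows, those of Nfe2l2, Gclm and Txnrd1, against 9.67% of all 32851 promoter windows of this length. In Nfe2l2 the match TGACTCCGC begins 240 bases before the start. Srxn1 held TGAGTCA at 102 and at 45 bases before the start, and the latter runs on to TGAGTCAGC, which 0.335% of all windows hold. TGAGTCA on its own was in 4.35% of windows. Slc7a11 held the amino acid response element at 66 bases before the start, and again at 48 bases on the other strand, and 0.216% of windows held it at all. The windows of Nqo1 and Keap1 held none of these letters. A match is a run of letters and not a shown binding site, and many known response elements lie further from the start.

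Per length of exon (CPM per kilobase of merged exons, GENCODE M21), the order of the members differed between obesity and control. In obesity Hmox1 stood far above the rest, at 94.3 and 88.8 CPM per kilobase. It was followed by Srxn1 (24.1 in both obesity libraries), Nfe2l2 (27.0 and 19.5) and Gsr (21.4 and 18.6), each overlapping its neighbour in this order. Txnrd1 came next with a mean of 14.8 CPM per kilobase, then Keap1 (10.5 and 10.7) and Gclm (10.2 and 10.4), which lay close without overlapping. Gclc (7.90), Nqo1 (4.17) and Slc7a11 (0.155) were lowest. In the control library the order began with Gclm at 25.7, Srxn1 at 25.2 and Nqo1 at 23.9 CPM per kilobase, and ended with Hmox1 at 4.50 and Slc7a11 at 4.37. Hmox1 thus stood first in obesity and next to last in control.

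**Figure D2:**
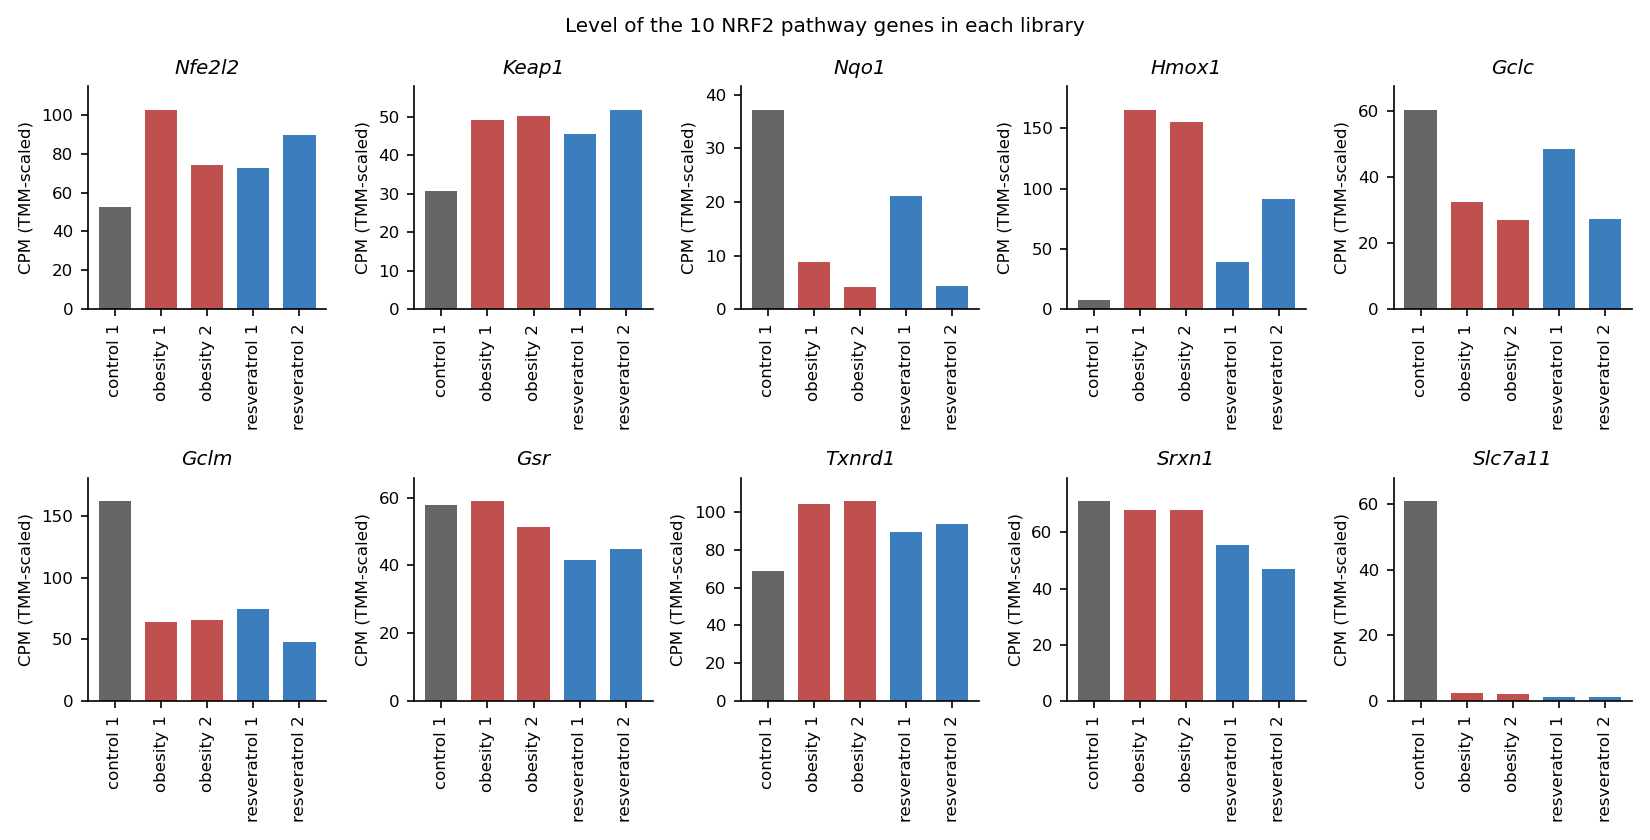
TMM-scaled CPM of each of the 10 genes (vertical axes linear from 0, each with its own scale) in the 5 libraries, 1 bar per library, with no error bars because each bar is a single library. Hmox1 is highest in the obesity libraries (165 and 155 CPM) and Slc7a11 in the control library (60.9 CPM), while Keap1, Txnrd1, Gsr and Srxn1 differ little.

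The first comparison asked how the pathway after the high-fat diet differed from that in the lean control library. Hmox1 was 20.3-fold higher in obesity, Slc7a11 was 28.2-fold lower, and the 2 regulators were less than 1.7-fold higher. Glutathione synthesis genes were lower by 2.03-fold (Gclc) and 2.51-fold (Gclm), and Gsr and Srxn1 lay within 1.05-fold of control. At a threshold of 0.05 after adjustment over 24779 genes, 0 members passed the quasi-likelihood test of edgeR, and 0% of all genes did. At an unadjusted p under 0.05 stood 3 members (Hmox1, Gclm and Slc7a11), and 24.3% of all tested genes did so. DESeq2 called the same 3 members, against 18.3% of all genes, and limma-voom called 0 members and 0% of genes. Without a filter on low counts edgeR called Hmox1 and Slc7a11, against 5.92% of genes, and with only the groups compared it called 6 members, against 37.2%. Adjusted p ranged from 0.160 (Slc7a11) to 0.894 (Srxn1) in edgeR's test.

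Nfe2l2 (ENSMUSG00000015839) was at 52.8 CPM in control (95% exact Poisson interval 50.1 to 55.5, which covers counting error only). Its levels were 103 and 74.0 CPM in obesity libraries 1 and 2 and 72.6 and 89.5 CPM in resveratrol libraries 1 and 2. Control was the lowest library, and the obesity and resveratrol libraries interleaved. The log2 difference of obesity from control was 0.74 (SE 0.368). Keap1 (ENSMUSG00000003308) was at 30.7 CPM in control, at 49.2 and 50.3 in obesity, and at 45.4 and 51.8 with resveratrol. Its log2 difference was 0.70 (SE 0.282), nearly that of Nfe2l2. Of the merged Keap1 exon length 10.9% also lies in the antisense gene Gm16754, and the counting's use of strand is not stated.

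Hmox1 (ENSMUSG00000005413), which encodes heme oxygenase 1, was at 7.88 CPM in control (95% exact interval 6.89 to 8.98), and its obesity levels were 165 and 155 CPM. The resveratrol libraries had 39.3 and 91.2 CPM, between control and obesity in both libraries. The log2 difference of obesity from control was 4.35 (SE 0.735, 95% interval 2.33 to 6.36), with adjusted p = 0.174 in edgeR's test. Heme oxygenase 1 is abundant in macrophages that clear red blood cells, and the macrophage marker sum moved in the same direction. Per 1000 CPM of macrophage markers, Hmox1 stood at 82.8 CPM in control, at 79.1 and 80.6 in the obesity libraries, and at 123 and 39.7 in resveratrol libraries 1 and 2. Per 1000 CPM of adipocyte markers it stood at 22.4 CPM in control, at 8.01 and 7.04 in obesity, and at 7.23 and 4.11 with resveratrol. On the macrophage scale control and obesity lay close together, with resveratrol library 1 above them and library 2 below. On the adipocyte scale control was the highest library. These values depend on the markers summed. Single macrophage markers in control stood at 2.66% (Adgre1) to 9.87% (Fcgr1) of their obesity mean, and Hmox1 at 4.92%. The part of macrophage content in the Hmox1 level was not tested. The 6 red blood cell markers summed to 237 CPM in control, to 723 and 514 in obesity, and to 203 and 1110 with resveratrol.

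Slc7a11 (ENSMUSG00000027737), whose product exchanges glutamate for the cystine needed to make glutathione, was at 60.9 CPM in control (95% exact interval 58.0 to 63.8). Outside control it was at 2.40 and 1.90 CPM in obesity and at 1.04 and 1.24 with resveratrol. The control library stood apart from the other 4. The log2 difference of obesity from control was -4.82 (SE 0.402, 95% interval -5.91 to -3.72), and its p ranked 24 among 24779 genes. Slc3a2, the partner chain of this transporter, had 493 CPM in control, against 184 and 205 in obesity. Ggt1, which breaks down extracellular glutathione, was at 227 CPM in control, at 0.470 and 0 in obesity, and at 5.09 and 0 with resveratrol. The epididymis marker sum was highest in that control library too, and the part of tissue content in these levels was not tested.

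Gclc and Gclm encode the catalytic and modifier subunits of glutamate-cysteine ligase, the first enzyme of glutathione synthesis. Gclc (ENSMUSG00000032350) was at 60.4 CPM in control, at 32.6 and 26.9 in obesity, and at 48.5 and 27.4 with resveratrol. Gclm (ENSMUSG00000028124) was at 162 CPM in control, at 63.9 and 65.2 in obesity, and at 74.9 and 47.6 with resveratrol. Of the merged Gclm exon length 4.7% is shared with Gm6061 on the same strand and Gm17494 on the other. Control was the highest of the 5 libraries for 5 members, as for 37.3% of all tested genes. For both subunits control was highest and resveratrol library 1 next, above all 3 other libraries. Nqo1 (ENSMUSG00000003849), whose product reduces quinones, shared this order at 37.1 CPM in control and 21.1 CPM in resveratrol library 1, against 8.87 and 4.09 CPM in obesity and 4.24 CPM in resveratrol library 2. That order was found in 3 of 10 members and in 18.4% of all tested genes. Control and resveratrol library 1 are the 2 libraries with the lowest sums of adipocyte and macrophage markers. Not every marker followed. In resveratrol library 1 Slc2a4 was at 267 CPM, against 118 and 177 in obesity, and Cfd at 1449 CPM, against 1356 and 1713. The other adipocyte markers and all macrophage markers were below both obesity libraries there. The part of tissue content in this order was not tested. Nqo1 was 5.73-fold lower in obesity than in control (log2 difference -2.52, SE 1.06), the widest error among the members. Without obesity library 1 this log2 difference was -3.17, and with the replicate number as a block it was -1.74.

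Gsr, Txnrd1 and Srxn1, which encode glutathione reductase, thioredoxin reductase 1 and sulfiredoxin, were the steadiest targets. Gsr (ENSMUSG00000031584) was at 57.7 CPM in control, at 59.0 and 51.3 in obesity, and at 41.6 and 44.8 with resveratrol. Txnrd1 (ENSMUSG00000020250) was at 69.0, 104 and 106, and 89.3 and 93.6 CPM in the same order of groups. Srxn1 (ENSMUSG00000032802) was at 71.1, 67.9 and 68.0, and 55.7 and 47.1 CPM. The highest library was above the lowest by 1.42-fold for Gsr, 1.53-fold for Txnrd1 and 1.51-fold for Srxn1, against 21.0-fold for Hmox1 and 58.2-fold for Slc7a11. The resveratrol libraries were below both obesity libraries for all 3 of these genes, as for 16.7% of all tested genes.

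The control library lay above both obesity libraries for 5 members (Slc7a11, Nqo1, Gclm, Gclc and Srxn1) and below both for 4 (Hmox1, Nfe2l2, Keap1 and Txnrd1), with Gsr between. Over all tested genes these shares were 48.6% and 40.8%. Fitted differences were above 0 for 4 of 10 members and 46.9% of all genes. The median log2 difference was -0.07 over the members and -0.10 over all tested genes. A fit without resveratrol library 1 called 6 members (Hmox1 and Keap1 higher; Slc7a11, Nqo1, Gclm and Gclc lower), against 37.4% of all genes. Without resveratrol library 2 it called 5 of these members, Keap1 being the exception, against 36.5% of all genes. The resveratrol libraries take part in this comparison mainly through the spread, which in these fits came from the obesity pair. They also enter slightly through the TMM scaling. Without resveratrol library 1 the log2 difference of Hmox1 moved from 4.346 to 4.358.

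**Figure D3:**
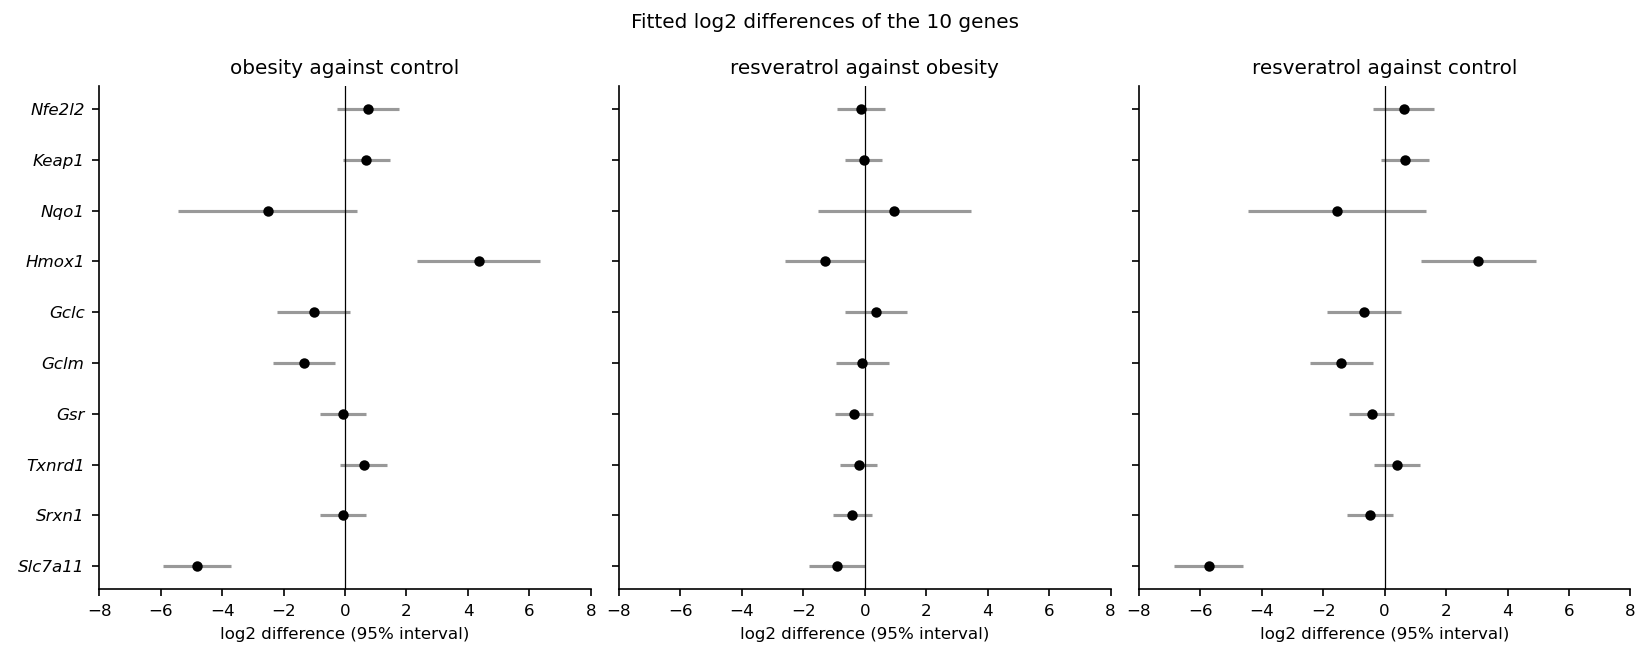
Fitted log2 differences (points) with 95% intervals (lines) of the 10 genes in the 3 comparisons of groups, from edgeR's quasi-likelihood fit of 5 libraries. In the comparisons with control the intervals of Hmox1, Gclm and Slc7a11 lie clear of 0; in resveratrol against obesity all 10 intervals cross 0.

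The second comparison asked how the pathway differed between resveratrol-treated and untreated mice on the high-fat diet. Hmox1 was 2.46-fold lower with resveratrol and Slc7a11 1.87-fold lower, Srxn1, Gsr and Txnrd1 were lower by 1.15-fold to 1.32-fold, and Nfe2l2 and Keap1 were within 1.09-fold of obesity. No member passed in edgeR's quasi-likelihood test (adjusted p from 0.899 to 1), in which 0% of all genes passed. At an unadjusted p under 0.05 stood 0 members in that test, against 2.34% of all genes. DESeq2 and limma-voom also called 0 members, against 0.884% and 0% of all genes. At an unadjusted p under 0.05 each had 1 member, against 1557 (DESeq2) and 595 (limma-voom) of 24779 genes.

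In 5 members (Hmox1, Slc7a11, Srxn1, Gsr and Txnrd1) both resveratrol libraries lay below both obesity libraries, against 16.7% of all tested genes. In 0 members did both lie above both obesity libraries, against 16.9% of all genes. The fitted difference was below 0 for 8 of 10 members, as for 45.1% of all genes, and the members' median was -0.16 on the log2 scale against 0.05 over all tested genes. For Hmox1 the log2 difference was -1.30 (SE 0.479, 95% interval -2.61 to 0.01). For Slc7a11 it was -0.91 (SE 0.335, 95% interval -1.82 to 0.01), at levels near 1 to 2 CPM. For Srxn1 it was -0.40 (SE 0.230, 95% interval -1.03 to 0.22) and for Gsr -0.35 (SE 0.226, 95% interval -0.97 to 0.26). Txnrd1 differed by -0.20 (SE 0.224).

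The members split into those for which the 2 resveratrol libraries agreed and those for which they did not. Resveratrol library 1 lay below both obesity libraries for 7 members and above both for 3 (Nqo1, Gclc and Gclm), against 37.8% and 43% of all tested genes. Resveratrol library 2 lay below both obesity libraries for 6 members (Hmox1, Slc7a11, Srxn1, Gclm, Gsr and Txnrd1), against 29.9% of all genes. It lay above both for Keap1 alone (31.9% of all genes). Its adipocyte and macrophage marker sums were near those of obesity, but its mesothelium and endothelium sums were the highest of all libraries. Its single macrophage markers stood at 46.2% (Fcgr1) to 204% (Cd14) of their obesity mean. Relative to the obesity mean, Hmox1 in resveratrol library 2 stood at 56.9%, Slc7a11 at 57.8%, Srxn1 at 69.3%, Gclm at 73.8%, Gsr at 81.2% and Txnrd1 at 89.1%. In resveratrol library 1 Hmox1 stood at 24.5% and Slc7a11 at 48.6%, whereas Nqo1 stood at 325% and Gclc at 163%. The obesity libraries themselves differed by 2.17-fold for Nqo1 and by 1.39-fold for Nfe2l2, so smaller differences of these genes are inside the pair's own spread.

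Leaving out resveratrol library 1 turned the direction of 4 members. Nqo1 moved from a log2 difference of 0.97 (SE 0.908) to -0.60, Gclc from 0.35 to -0.11, Keap1 from -0.03 to 0.07 and Nfe2l2 from -0.12 to 0.03. Hmox1 moved to -0.80 and stayed below obesity. Leaving out resveratrol library 2 turned Gclm from -0.08 to 0.23 and took Hmox1 to -2.01, with adjusted p = 0.00242 in edgeR's test, over alternatives that ranged from 0.00242 to 1. That fit called 18.9% of all genes, and its spread came from the obesity pair alone. It took Nqo1 to 1.71, and leaving out obesity library 1 took Nqo1 to 1.64. Leaving out obesity library 1 turned Nfe2l2 to 0.14. Hmox1, Slc7a11, Srxn1, Gsr and Txnrd1 were lower with resveratrol in each of the 14 alternative fits. For these genes both resveratrol libraries lay below both obesity libraries, so leaving out a library could not turn them. The other fits reused the same counts, and none of this is separate support. With resveratrol library 1 and the control library both left out, 8 of 10 members were lower and 0 passed, against 0.646% of all genes.

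The third comparison set the resveratrol libraries against the lean control library. Hmox1 was 8.28-fold higher (log2 difference 3.05, SE 0.681) and Slc7a11 52.9-fold lower (log2 difference -5.72, SE 0.416) than in control. Gclm was 2.64-fold lower. In edgeR's quasi-likelihood test 0 members and 0% of all genes passed, and the members' adjusted p ranged from 0.163 to 0.430. At an unadjusted p under 0.05 stood 3 members (Hmox1, Gclm and Slc7a11), against 18.5% of all genes; DESeq2 called these 3, against 12.5% of genes, and limma-voom 0, against 0.323%. Without a filter on low counts edgeR called Hmox1 and Slc7a11, against 3.84% of genes. Without resveratrol library 1 it called 5 members (Hmox1 higher; Slc7a11, Nqo1, Gclm and Gclc lower), against 30.4% of genes, and without resveratrol library 2 it called 3 (Hmox1, Slc7a11 and Gclm), against 16.7%. Between these fits the log2 difference of Hmox1 went from 3.56 to 2.34 and that of Nqo1 from -3.10 to -0.79, around -1.55 with both libraries. Both resveratrol libraries lay above control for 4 members and below it for 6, against 37.7% and 41% of all tested genes. The comparisons share the control library, and their values are therefore given side by side and not as separate support.

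The wider pathway was described with 6 lists that hold 56 genes, members included, all of them tested. Genes of heme and iron handling and of NADPH supply stood higher in obesity than in control, in 6 of 6 members of each list. Their median log2 differences were 1.86 and 1.94. Over all tested genes 46.9% were higher, with a median of -0.10. Genes of glutathione synthesis and use were mixed, with 6 higher and 8 lower. After adjustment 0 of the 56 passed edgeR's test. At an unadjusted p under 0.05 stood 12 higher and 6 lower, against 12.6% and 11.7% of all tested genes. Blvra, which encodes the biliverdin reductase that acts after heme oxygenase, was at 11.8 CPM in control, at 97.6 and 91.6 in obesity, and at 32.2 and 68.6 with resveratrol. Blvra thus followed the order of Hmox1 over the groups. Idh1, the cytosolic isocitrate dehydrogenase gene that yields NADPH, was at 28.1 CPM in control, at 315 and 281 in obesity, and at 176 and 239 with resveratrol. The adipocyte and macrophage marker sums were lowest in control as well, and their part in these levels was not tested.

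In the regulation list 8 of 13 genes were higher in obesity than in control and 5 lower, while 46.9% of all tested genes were higher. Mafk, a small MAF partner of NRF2, was at 19.0 CPM in control, at 44.6 and 40.6 in obesity, and at 35.6 and 57.1 with resveratrol. Mgst2, which encodes a microsomal glutathione transferase, was at 0.488 CPM in control, at 18.5 and 11.9 in obesity, and at 3.18 and 12.3 with resveratrol. Abcc4, an organic anion exporter gene, differed in the opposite direction, at 50.9 CPM in control, at 22.5 and 14.8 in obesity, and at 11.9 and 14.4 with resveratrol. Its resveratrol libraries were both below the obesity libraries.

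With resveratrol, the fitted difference from obesity was below 0 for all 6 genes of the thioredoxin, heme and NADPH lists each. It was below 0 for 45.1% of all tested genes. The list medians were -0.37, -0.71 and -0.50 on the log2 scale, against 0.05 over all tested genes. Txnrd1, Srxn1 and Hmox1, described above, are among these list genes. Of the 56 genes, 18 lay below both obesity libraries in both resveratrol libraries and 5 (Gsta3, Cbr1, Cbr3, Gstp1 and Mafg) above, against 16.7% and 16.9% of all tested genes. The 2 libraries differed in degree, and for some genes in direction. In the thioredoxin, heme and NADPH lists, resveratrol library 1 was below the obesity mean for all 6 genes each. Resveratrol library 2 was below it for 4, 5 and 5 genes. Sesn2 of the thioredoxin list stood at 33.6% of the obesity mean in library 1 and at 131% in library 2. Relative to the obesity mean, the median gene of the heme list stood at 38.3% in resveratrol library 1 and at 87.2% in library 2, and that of the NADPH list at 43.4% and 93.3%. Over the 15877 tested genes with an obesity mean of 1 CPM or more, these medians were 92.1% and 97.8%. Of these genes, 8893 were below the obesity mean in library 1 and 8603 in library 2. Prdx1, a peroxiredoxin gene, had 215 and 303 CPM in the treated libraries, below the 407 and 341 CPM of obesity. Prdx6, another peroxiredoxin gene, had 194 and 421 CPM, against 374 and 457 CPM. Among the 5 higher genes, Gsta3, a glutathione S-transferase gene, had 28.7 and 45.0 CPM in the treated libraries, above the 15.2 and 19.8 CPM of obesity. This was the sole one of the 56 genes with an unadjusted p under 0.05 in edgeR's test, against 1.92% of all genes higher at that level and 0.428% lower. Its log2 difference was 1.07 (SE 0.348), with adjusted p = 0.899 in that test. Cbr1, a carbonyl reductase gene, had 151 and 47.8 CPM in the treated libraries and 41.5 and 41.7 CPM in obesity, a difference that lay mostly in library 1.

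**Figure D4:**
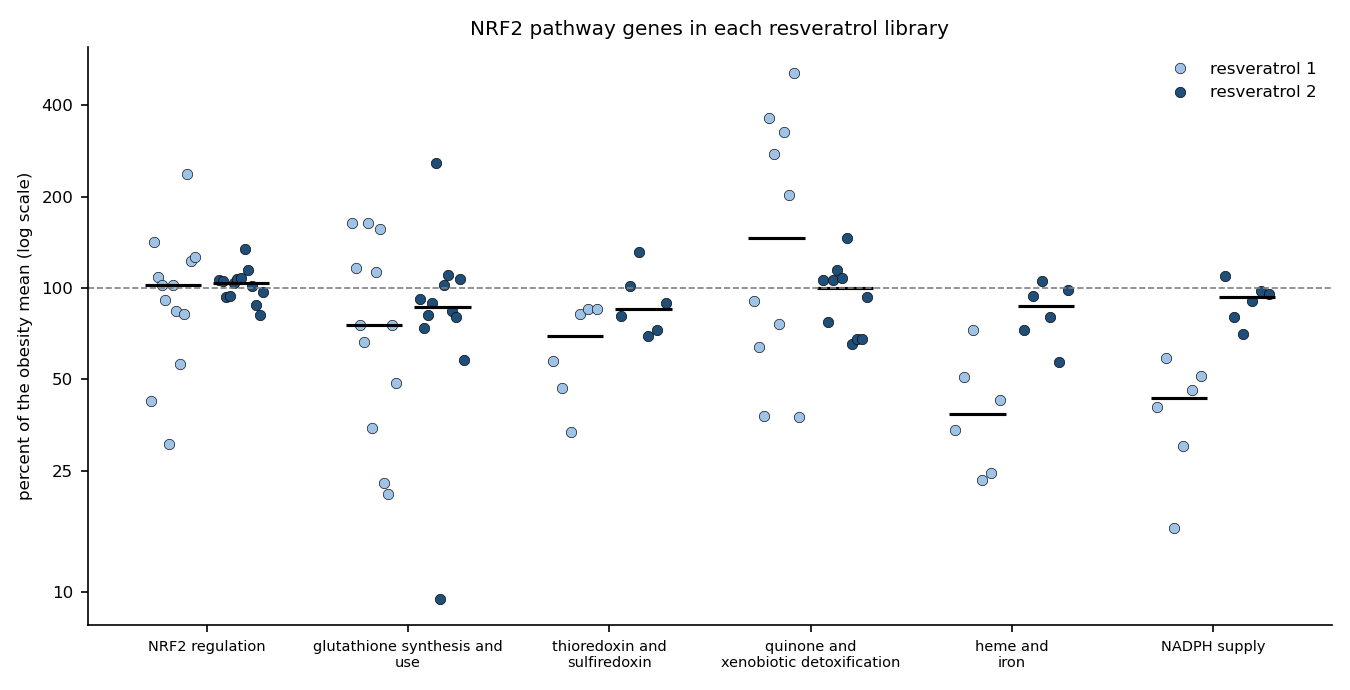
Level of each pathway gene in resveratrol libraries 1 (light points) and 2 (dark points) as a percentage of its mean in the 2 obesity libraries (vertical axis logarithmic), for 53 genes with an obesity mean of 1 CPM or more in 6 lists; black lines are medians and the dashed line marks 100%. The heme and NADPH lists lie lower in library 1 (medians 38.3% and 43.4%) than in library 2 (87.2% and 93.3%), and the detoxification list spreads widest in library 1.

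The members were not alike in their pattern over the 5 libraries. The measure was the root mean square difference of log2(CPM + 1) profiles, each centred on its own mean. The closest pair was Keap1 and Txnrd1, at 0.105, followed by Gsr with Srxn1 at 0.128 and Nfe2l2 with Keap1 at 0.164. The most distant pair was Hmox1 and Slc7a11, at 3.26. Among 10316 genes with a mean of 10 CPM or more, those closest to Nfe2l2 were Socs6, Rab33b and Svbp, at 0.0332, 0.0536 and 0.0605. Socs6, a gene of the suppressor of cytokine signalling family, was at 18.0 CPM in control, at 35.9 and 24.9 in obesity, and at 24.3 and 32.2 with resveratrol. Those closest to Hmox1 were Pdk4, Gas2l3 and Spp1, at 0.112, 0.124 and 0.131. Pdk4, a kinase gene that restrains glucose oxidation, was at 4.81 CPM in control, at 127 and 110 in obesity, and at 28.7 and 56.3 with resveratrol. Spp1, the osteopontin gene, was at 0.976 CPM, 40.1 and 36.2 CPM, and 8.59 and 16.6 CPM in the same order of groups. These likenesses are a description over 5 libraries that share their tissue content.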

How the data were processed

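Visceral adipose RNA of 5 libraries in 3 groups was analysed. The authors deposited raw whole-number counts per Ensembl gene, made with featureCounts after FastQC on GRCm39, per the submitters' processing notes. Libraries were stranded and poly-A selected, per the labels' protocols. The sources used here do not give the aligner, annotation release, strand setting or software versions. Symbols were matched for 65.7% of identifiers.

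The analysis used edgeR 4.0.16 in R 4.3.3: filterByExpr by group (minimum count 10, minimum total 15), TMM factors and 1 robust quasi-likelihood model over the 5 libraries, adjusted with Benjamini-Hochberg over 24779 genes at 0.05. The single control was taken to vary as the other groups did. The SE is the log2 difference divided by the square root of F. Alternatives used limma 3.58.1 and DESeq2 1.42.0. The edgeR fit was tested on simulated data with known changes of 4-fold and 16-fold. It recovered 0% of either in obesity against control. Of the 4-fold and 16-fold changes it recovered 1% and 37% in resveratrol against obesity, and 0% and 2% in resveratrol against control. A count of 0 therefore does not show that levels were alike.

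The members, lists and tests were chosen with earlier results of these data known. The rule named the 10 members, per list the gene other than a member with the smallest p in obesity against control and in resveratrol against obesity (mean of 1 CPM or more), and the 3 genes most like Nfe2l2 and Hmox1. A result for 1 gene that the rule chose is not reported here. Slc3a2 and Ggt1 were named after their values were seen. Figures used Python 3.11.15 and matplotlib 3.10.9.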

Additional observations from a re-analysis of the deposited data

How the results depend on the processing

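No gene was called in the 3 comparisons under median-ratio size factors, the stricter filter, the fit that is not robust, or the replicate block, while other settings called some. Obesity against control gave 2575 genes without a filter, 4524 with DESeq2 and 9209 with only the groups compared, and 0 to 9276 when libraries were left out. Resveratrol against control gave 1671, 3085 with DESeq2 and 80 with limma-voom, and 0 to 7525. Resveratrol against obesity gave 25, 219 with DESeq2, and 0 to 4689; the cause was not tested. The number of members higher stayed within 1.5 times of its value.

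The replicate block called 0 genes in each comparison. Same-numbered libraries are not paired by the labels, and their deviations correlated at 0.282 across 24779 genes. Of the members' log2 differences, 1 of 120 alternative values turned in obesity against control, 0 of 120 in resveratrol against control and 10 of 140 in resveratrol against obesity, all of them with libraries left out. Gsr in obesity against control ranged from -0.16 to 0.030. In resveratrol against obesity Gclc ranged from -0.12 to 0.72, Gclm from -0.44 to 0.23, Keap1 from -0.12 to 0.071, Nfe2l2 from -0.34 to 0.14 and Nqo1 from -0.61 to 1.71. Depth limits Slc7a11 most, at 1 to 2 CPM outside control.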
